A study of Saccharomyces cerevisiae with 6 samples.

Results

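The genes described here encode RNA polymerase II, the Mediator complex and the factors that travel with the polymerase during elongation in budding yeast. They were chosen from a list of 47 gene symbols, and 46 of them had a probe set among the 5449 genes tested. The symbol SRB4, a Mediator head subunit, was not analysed here. The 46 measured genes comprised 7 polymerase subunits, 24 Mediator subunits and 15 elongation factors, and every one was tested, with no filter on low values. Transcripts of Saccharomyces cerevisiae were measured on one-colour Affymetrix arrays. Of the 6 arrays, 3 were hybridised with RNA from yeast with wild-type H2A and 3 with RNA from yeast with H2A R78A, in which an arginine of histone H2A is replaced by alanine. Both groups were grown in rich glucose medium at 30 °C and harvested in mid-log phase. The labels give no strain background, no mating type, no number of clones and no means by which the mutant histone was expressed. Nor do they state whether each replicate came from a culture of its own. The p-values therefore speak only for the variation among these arrays, part or all of which may be technical.

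RNA polymerase II transcribes all protein-coding genes. Mediator is a large complex that carries signals from DNA-bound activators to the polymerase at the promoter: its head and middle modules contact the polymerase, its tail contacts activators, and a separable kinase module acts largely as a repressor in yeast. Once the polymerase leaves the promoter, Spt4-Spt5, Spt6, the Paf1 complex, TFIIS and the histone chaperone FACT help it through nucleosomes. FACT binds H2A-H2B dimers, the part of the nucleosome that holds the mutated residue. The comparison asks whether yeast with the altered histone carried different amounts of the transcripts for this machinery.

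Signals had been scaled to the same trimmed mean on every array, so each level is relative to the other transcripts of that array. A change shared by all transcripts would therefore not be seen. Nor can fewer cells of a kind and less RNA per cell be told apart. The median signal over all genes was 409.6 to 411 on the wild-type arrays and 420.2 to 438 in the mutant. Gene signals spanned a smaller range in the mutant: their 10th percentile was 121 to 135 against 90.2 to 102, and their 90th percentile was 997 to 1050 against 1070 to 1106. Each difference is therefore also given after quantile normalization, which gives all arrays the same distribution. The median signal of the 46 genes was 461 to 489 on the wild-type arrays and 459 to 477 on the mutant arrays, and these ranges overlapped.

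Few transcripts of this machinery passed the test, and with 3 arrays a group differences near 0.25 on the log2 scale can be missed. On the deposited scale 2 of the 46 genes were higher in H2A R78A, the Mediator head gene MED6 and the cyclin gene SSN8 of the kinase module, and 3 were lower, the Mediator middle genes MED4 and SRB7 and the elongation factor gene ELF1 (adjusted p below 0.05, limma with Benjamini-Hochberg adjustment over all genes). The 2 higher genes made up 4.35% of the members, where 17.9% of all genes tested were higher, and the 3 lower genes made up 6.52%, where 9.18% of all genes were lower. The median log2 difference, H2A R78A minus wild type, was -0.01 over the members and 0.02 over all genes, and 23 members had a positive and 23 a negative difference. After quantile normalization 0 members were higher and 4 were lower, namely MED4, SRB7, ELF1 and the head gene SRB5, against 10.4% higher and 9.98% lower over all genes. At an unadjusted p below 0.05, 4 members were higher and 5 lower on the deposited scale, where 24.2% and 16.2% of all genes were. After quantile normalization 2 were higher and 9 lower at that p, where 16% and 19% of all genes were. The members' median was then -0.05 and that of all genes -0.03.

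**Figure D1:**
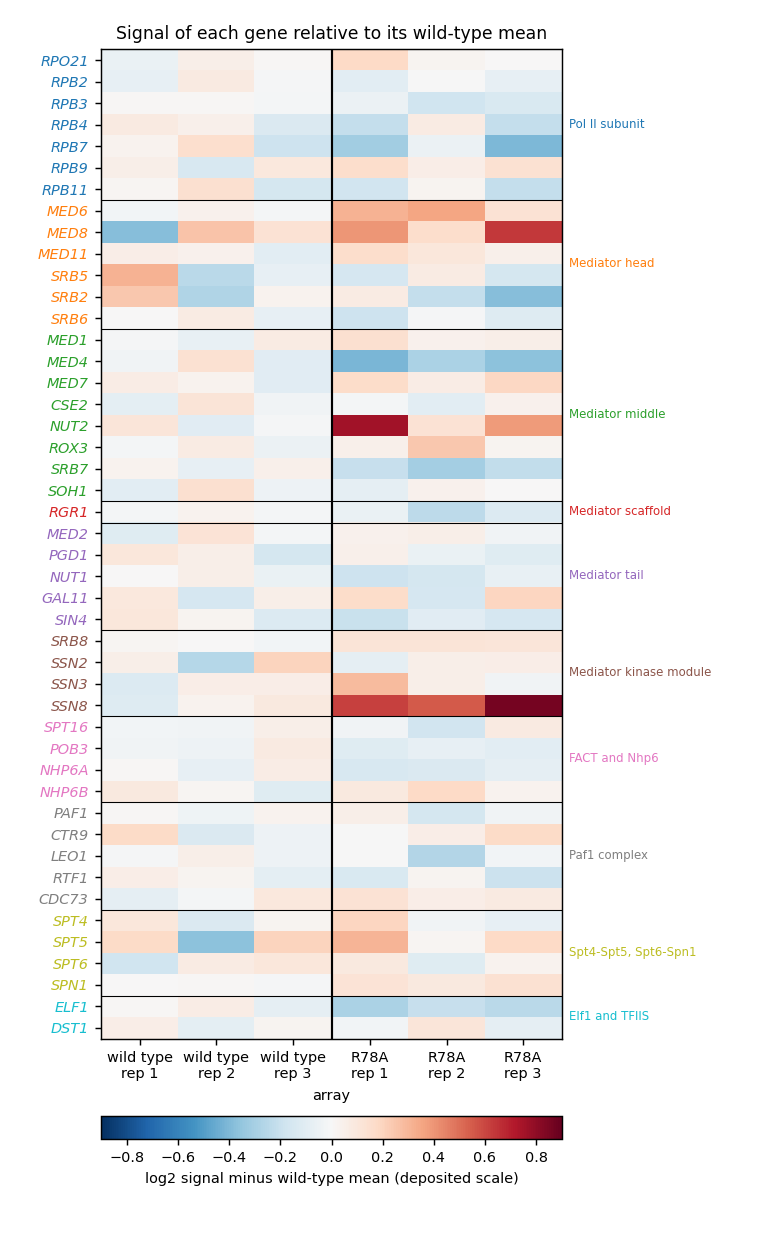
Heat map of the log2 signal of each of the 46 measured genes on each of the 6 arrays, minus the gene's mean over the 3 wild-type arrays (deposited scale), with genes grouped by complex. Most rows are pale on all arrays, the SSN8 row is dark red on all 3 mutant arrays, and the MED4, SRB7 and ELF1 rows are blue on all 3.

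On the deposited scale the groups were fully separated for 6 members in one direction and 8 in the other. The mutant arrays were all above the wild-type arrays for 6 members, MED6, MED7, NUT2, SRB8, SSN8 and SPN1, where this held for 25.7% of all genes. They were all below for 8 members, RPB3, MED4, SRB7, RGR1, NUT1, POB3, NHP6A and ELF1, where this held for 17.4% of all genes. After quantile normalization 2 members were without overlap above wild type, NHP6B and SPN1, and 8 below, against 16.7% and 20.6% of all genes. Those 8 were SRB5, MED4, CSE2, SRB7, SRB8, SSN2, SSN3 and ELF1, while the groups of RPB3, RGR1, NUT1, POB3 and NHP6A then overlapped. Replicate spread was like that of other genes: the median SD of log2 signals was 0.10 in wild type and 0.09 in the mutant, both for the members and for all genes. The half-width of the 95% interval of a member's difference had a median of 0.17 on the log2 scale with 3 arrays a group.

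**Figure D2:**
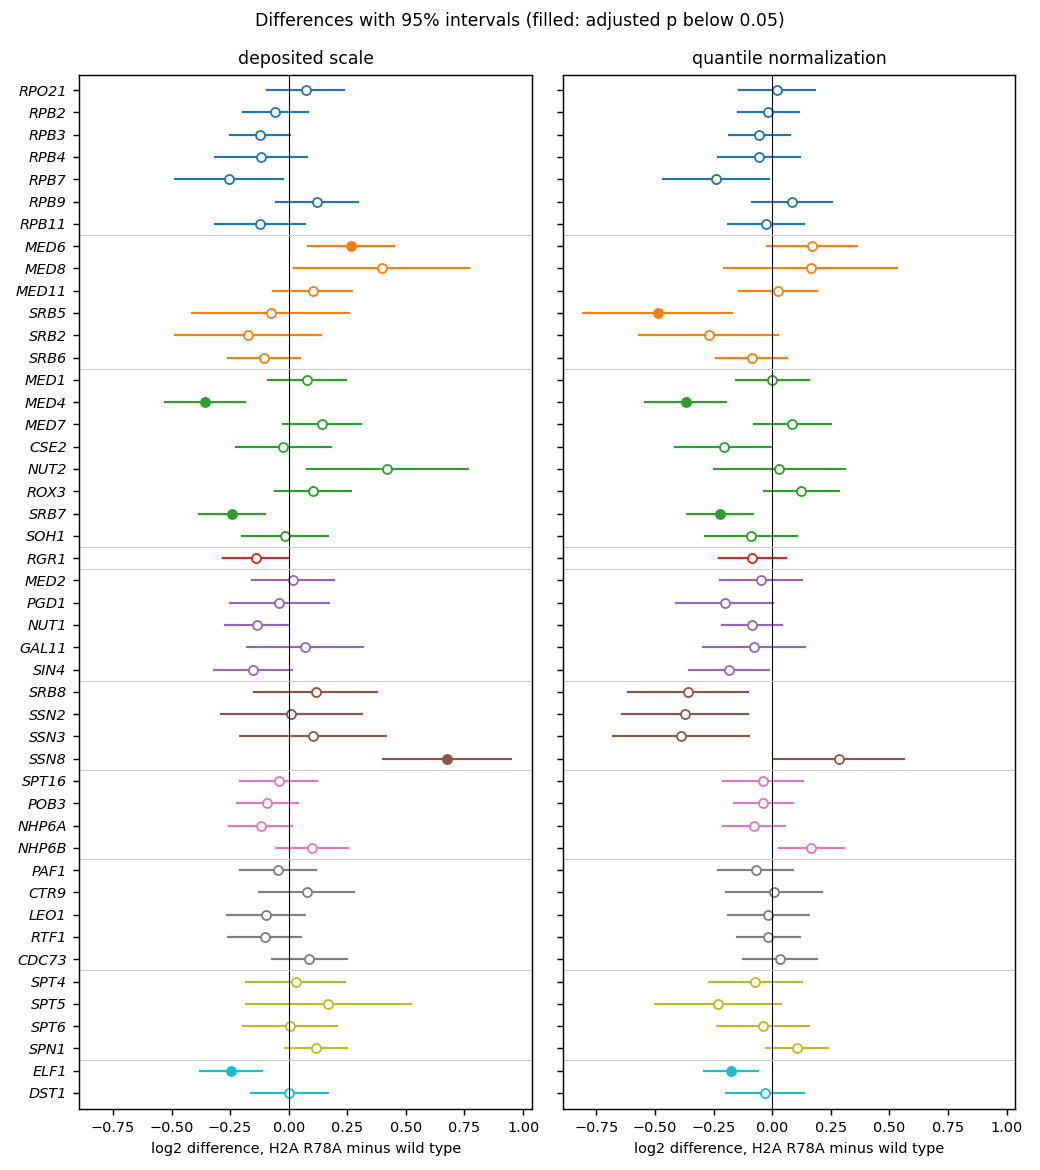
Log2 difference (H2A R78A minus wild type) of each gene with its 95% interval from limma, on the deposited scale (left) and after quantile normalization (right), coloured by complex; filled points have an adjusted p below 0.05. MED4, SRB7 and ELF1 are filled on the negative side in both panels, MED6 and SSN8 only in the left panel, and SRB5 only in the right panel.

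None of the 7 genes for subunits particular to RNA polymerase II passed the unpaired test on the deposited scale or after quantile normalization. At an unadjusted p below 0.05, 1 of them, RPB7, was lower on each scale, where 16.2% and 19% of all genes were. Unpaired fits with median centring called 2 lower, RPB3 and RPB7, where 16.1% of all genes were. Those with array weights called RPB4 and RPB7 lower. RPO21 (YDL140C) encodes the largest subunit, whose C-terminal repeats carry the phosphorylation marks of the transcription cycle. It read 417, 450.0 and 437 on wild-type arrays 1 to 3 and 493, 442 and 437 on mutant arrays 1 to 3. Mutant replicate 1 was highest and the other mutant arrays lay within the wild-type range, so the groups overlapped (log2 difference 0.07, SE 0.07, 95% interval -0.09 to 0.24, adjusted p = 0.506). RPB2, for the second largest subunit, averaged 834 ± 43.1 on wild-type arrays and 802 ± 28.0 on mutant arrays (SD, n = 3; log2 difference -0.06, limma adjusted p = 0.531). RPB3 and RPB11, which form the dimer on which the enzyme assembles, had log2 differences of -0.12 each (limma adjusted p = 0.137 and 0.326). After quantile normalization these were -0.06 and -0.03 (limma adjusted p = 0.532 and 0.830). RPB9, whose product supports transcription fidelity, had a log2 difference of 0.12 (limma adjusted p = 0.285).

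RPB4 and RPB7 form the stalk of the enzyme, which binds the emerging transcript. RPB7 (YDR404C) read 784, 849 and 674 in wild type and 615, 738 and 579 in the mutant, in the order of the replicate numbers. The mutant value of replicate 2 lay above the lowest wild-type value, so the groups overlapped, but in each same-numbered pair the mutant was the lower. Without pairing the log2 difference was -0.26 (SE 0.10, limma adjusted p = 0.0913), and with the replicate number as a block it passed on the deposited scale (adjusted p = 0.00655) and after quantile normalization (0.0121). Unpaired, it passed with median centring (-0.32, limma adjusted p = 0.0414) and with array weights (-0.33, limma adjusted p = 0.00851). RPB7 passed in 4 of the 11 alternative settings that kept all arrays and in 2 of the 6 fits that left out an array. RPB4 had a log2 difference of -0.12 (limma adjusted p = 0.344), and its mutant values of 836, 1019 and 833 overlapped wild-type values of 1027, 999 and 885. The 95% intervals of the 7 subunits together ran from -0.49 to 0.29 on the log2 scale.

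Of the 6 measured genes of the Mediator head, the module that contacts the polymerase and TFIIB, 1 was higher and 0 were lower on the deposited scale. Of all genes 17.9% were higher and 9.18% lower. At an unadjusted p below 0.05, 2 were higher and 0 lower, against 24.2% and 16.2% of all genes. MED6 (YHR058C), for a conserved head subunit, read 296, 308 and 296 in wild type and 373, 383 and 328 in the mutant. All mutant values lay above all wild-type values, and the third mutant array was the closest to them. The signal rose 1.2-fold (log2 0.26, SE 0.08, limma adjusted p = 0.0385). After quantile normalization its log2 difference was 0.17 (limma adjusted p = 0.192). The call also ended with median centring (limma adjusted p = 0.0836), cyclic loess (0.153), low values raised to the 10th percentile (0.0792) and quantile normalization plus the replicate block (0.0936). It held in 6 of the 11 settings that kept all arrays. Of the 6 fits that left out an array it held in only 1, that without mutant replicate 3 (limma adjusted p from 0.0314 to 0.127).

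The probe sets of MED8 and SRB5 were dim, below a background level of 232 set at the 25th percentile of all genes. MED8, for the head subunit that binds the TATA-binding protein, read 125, 194 and 177 in wild type and 214, 181 and 252 in the mutant. The groups overlapped, and the mutant was higher in 2 of 3 same-numbered pairs. Its log2 difference was 0.40 (SE 0.17, adjusted p = 0.105), which passed with the replicate block (0.0484) and did not after quantile normalization (0.16, limma adjusted p = 0.519). SRB5 (YGR104C), which with SRB2 makes a movable pair of head subunits, read 118, 80.5 and 90.4 in wild type and 85.7, 99.8 and 85.3 in the mutant. These deposited values overlapped and gave a log2 difference of -0.08 (limma adjusted p = 0.734). After quantile normalization they became 130.1, 99.7 and 101 against 69.3, 91.9 and 74.3, without overlap, and the difference of -0.49 passed (SE 0.14, limma adjusted p = 0.0361). SRB2 had differences of -0.17 and -0.27 on these 2 scales (limma adjusted p = 0.379 and 0.181), MED11 had 0.10 and 0.03 and SRB6 -0.10 and -0.09, and SRB2 passed as lower with quantile normalization and the block together (0.0453).

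Of the 8 middle module genes 2 (25%) were lower on both scales, where 9.18% of all genes were on the deposited scale and 9.98% after quantile normalization. On both scales 0 were higher, against 17.9% and 10.4% of all genes. At an unadjusted p below 0.05, 1 was higher on the deposited scale and 0 after quantile normalization, against 24.2% and 16% of all genes. At that p 2 were lower on each scale, against 16.2% and 19%. MED4 (YOR174W), for a subunit of the module that passes contacts from the tail to the head and polymerase, read 619, 697 and 590.4 in wild type and 476, 521 and 491 in the mutant. All 3 mutant arrays lay well below the lowest wild-type array. The signal was 1.28-fold lower (log2 -0.36, SE 0.08, limma adjusted p = 0.00716) and -0.37 after quantile normalization (limma adjusted p = 0.00823). It passed in all 11 planned settings that kept the 6 arrays, with log2 differences from -0.42 to -0.35, and in all 6 that left out an array, with -0.41 to -0.29 and limma adjusted p at most 0.0347.

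SRB7 (YDR308C), which pairs with MED7 to form the hinge of the middle module, read 769, 714 and 778 in wild type and 653, 609 and 647 in the mutant. The groups did not overlap, and the pair differences were nearly equal, at -0.24, -0.23 and -0.27. The signal was 1.18-fold lower (log2 -0.24, SE 0.06, limma adjusted p = 0.0183), and -0.22 after quantile normalization (limma adjusted p = 0.0326). The call ended with cyclic loess (limma adjusted p = 0.0525) and without wild-type replicate 1 (0.0693), wild-type replicate 3 (0.0522) or mutant replicate 3 (0.0515). MED7 itself had a positive difference of 0.14 that did not pass (limma adjusted p = 0.188), with mutant values of 452, 422 and 459 all just above wild-type values of 421, 413 and 376.

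The other 5 genes of the module did not pass on either scale. NUT2 and CSE2 had probe sets below the background level. NUT2, for the conserved subunit Med10, read 99.7, 86.0 and 91.5 in wild type and 155, 101 and 120.2 in the mutant. The mutant was higher in all 3 same-numbered pairs, and the log2 difference of 0.42 missed the threshold without the block (limma adjusted p = 0.0664), passed with it (0.0120), and was 0.03 after quantile normalization (limma adjusted p = 0.883). CSE2, whose product pairs with MED4, had log2 differences of -0.02 on the deposited scale and -0.21 after quantile normalization (limma adjusted p = 0.877 and 0.143). MED1, ROX3 and SOH1 had deposited differences between -0.02 and 0.10.

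RGR1 (YLR071C), which encodes the scaffold subunit joining head, middle and tail, read 869, 896 and 868 in wild type and 843, 745 and 805 in the mutant. The mutant values were all lower, and the log2 difference of -0.14 did not pass (SE 0.06, limma adjusted p = 0.124). After quantile normalization it was -0.09 (limma adjusted p = 0.374). With median centring RGR1 passed as lower (-0.20, limma adjusted p = 0.0351). None of the 5 tail genes passed on the deposited scale or after quantile normalization. At an unadjusted p below 0.05, 1 was lower on each scale, NUT1 on the deposited scale and SIN4 after quantile normalization. Of all genes 16.2% and 19% were lower at that p. SIN4, which had the largest difference of these 5 genes on the deposited scale, read 578, 548 and 495 in wild type and 469, 502 and 485 in the mutant. One mutant value exceeded the lowest wild-type value, and the log2 difference was -0.15 (SE 0.08, limma adjusted p = 0.156). GAL11, for the tail subunit that activators such as Gcn4 and Gal4 bind, had a log2 difference of 0.07 (limma adjusted p = 0.676), MED2 0.02, PGD1 -0.04 and NUT1 -0.14. After quantile normalization all 5 tail genes had negative differences, from -0.20 to -0.05, and none passed. NUT1 passed as lower with median centring (limma adjusted p = 0.0465), and SIN4 with array weights (0.0350).

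**Figure D3:**
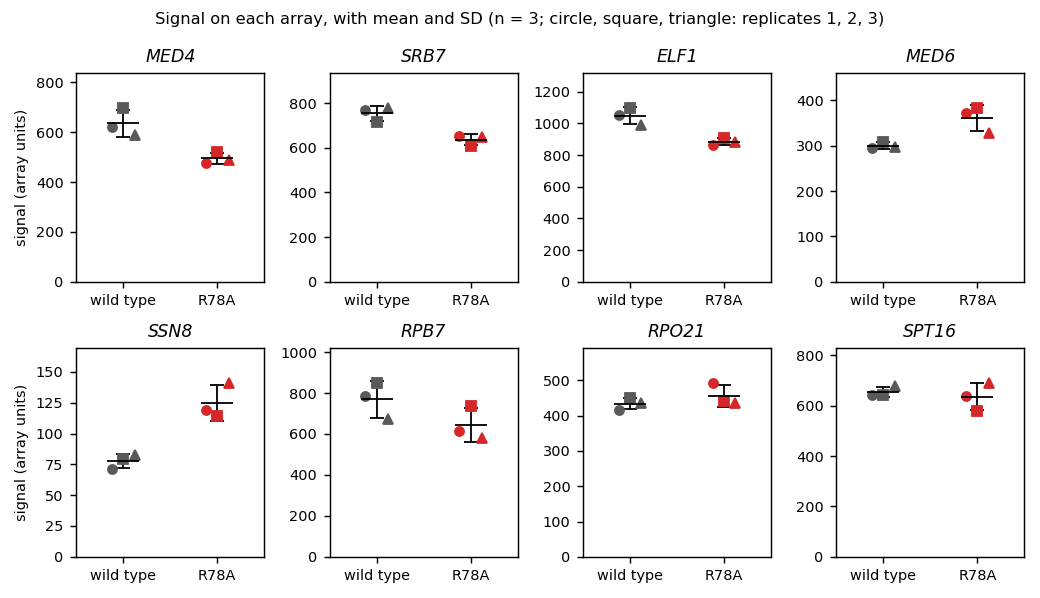
Signal in array units (vertical axis from 0) of 8 members on the 3 wild-type (grey) and 3 mutant (red) arrays, with the mean and SD of each group (n = 3) and a marker for each replicate number. MED4, SRB7, ELF1, MED6 and SSN8 do not overlap between the groups, while RPB7, RPO21 and SPT16 do.

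All 4 genes of the kinase module had dim probe sets, below the same background level of 232. SSN8 (YNL025C) encodes cyclin C, the partner of the kinase Ssn3, and is known in yeast as a repressor of stress and meiotic genes. It read 71.6, 79.4 and 82.4 in wild type and 119, 114 and 141 in the mutant. Every mutant array lay above every wild-type array, and the deposited signals differed by 0.68 on the log2 scale (SE 0.12, limma adjusted p = 0.00274). Since all 6 values lie below the background level, no fold change of the transcript is given. It passed in all 6 fits that left out an array, with log2 differences from 0.58 to 0.74. The call ended after quantile normalization (log2 0.28, limma adjusted p = 0.136), with cyclic loess (0.34, limma adjusted p = 0.0848), with values under the 10th percentile raised to it (0.16, limma adjusted p = 0.261) and with quantile normalization plus the replicate block (0.28, limma adjusted p = 0.0612).

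The 3 other kinase module genes had small positive differences on the deposited scale that turned negative after quantile normalization, and passed on neither. At an unadjusted p below 0.05 after quantile normalization these 3 were lower and SSN8 was higher, where 19% of all genes were lower and 16% higher. SRB8, for Med12, read 61.3, 60.7 and 59.5 in wild type and 65.7, 65.6 and 65.2 in the mutant. The groups were tight and separate, with a log2 difference of 0.11 (limma adjusted p = 0.503), and after quantile normalization the order was turned (-0.36, limma adjusted p = 0.0509). SSN3, for the kinase, went from a log2 difference of 0.10 to -0.39 (limma adjusted p = 0.615 and 0.0602), and SSN2, for Med13, from 0.01 to -0.37 (limma adjusted p = 0.962 and 0.053). With quantile normalization and the replicate block together these 3 passed as lower (limma adjusted p from 0.0297 to 0.0427), while SSN8 did not pass (0.0612). The direction for this module, apart from SSN8, thus depended on the scaling.

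**Figure D4:**
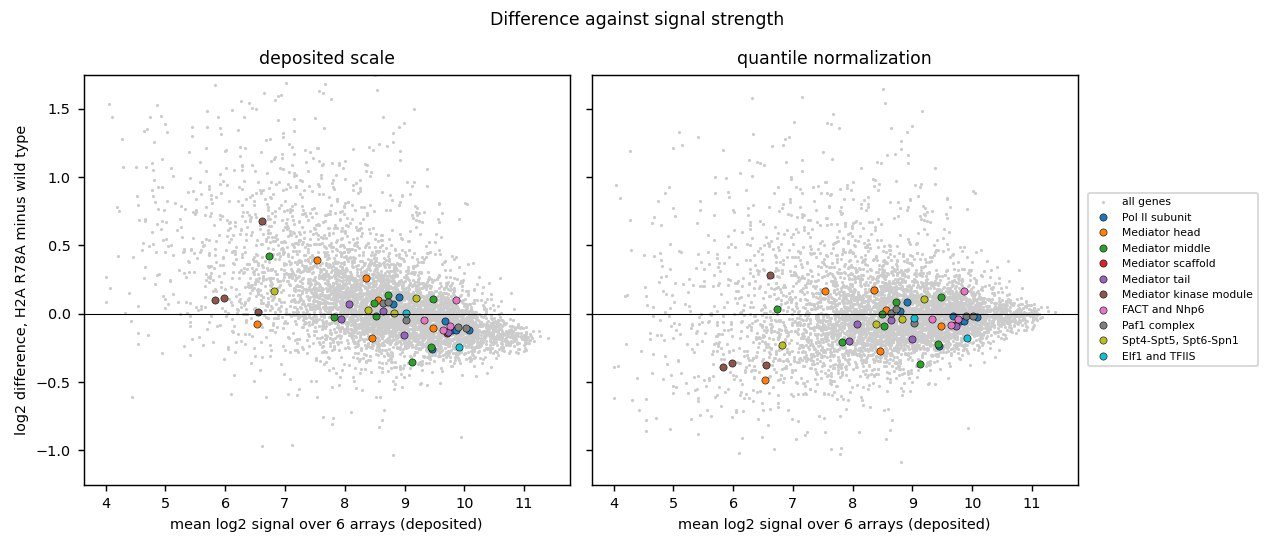
Log2 difference (H2A R78A minus wild type) against the mean log2 signal over the 6 arrays, on the deposited scale (left) and after quantile normalization (right), for all genes (grey) and the members (coloured by complex). The 33 genes with a mean log2 signal of 4 or less are not drawn, and 9 genes on the left and 4 on the right lie outside the vertical axis. On the left the dim kinase module genes lie above 0 and most of the brightest members below it, and on the right 3 of the 4 kinase module genes lie below 0.

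FACT, the chaperone that removes and restores H2A-H2B dimers ahead of and behind the polymerase, showed no gene past the unpaired test. At an unadjusted p below 0.05 its list with the Nhp6 genes had 0 on the deposited scale, where 24.2% of all genes were higher and 16.2% lower. After quantile normalization it had 1 higher, NHP6B, where 16% of all genes were. SPT16 (YGL207W), for the large FACT subunit, read 643, 641 and 678 in wild type and 638, 580.2 and 690.5 in the mutant. The mutant arrays spanned a wider range that held all wild-type values, with a log2 difference of -0.04 (95% interval -0.21 to 0.12, limma adjusted p = 0.696). POB3, for the other FACT subunit, averaged 893 ± 45.0 in wild type and 838 ± 11.3 in H2A R78A (SD, n = 3; log2 -0.09, limma adjusted p = 0.274).

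NHP6A and NHP6B encode near-identical HMG-box proteins that help FACT engage nucleosomes. NHP6A read 845, 793 and 875 in wild type and 757, 763 and 790.0 in the mutant, all mutant values being lower (log2 -0.12, SE 0.06, limma adjusted p = 0.165). After quantile normalization its groups overlapped (log2 -0.08, limma adjusted p = 0.375). NHP6B read 953, 906 and 830.1 in wild type and 952, 1016 and 913 in the mutant. These overlapped (log2 0.10, limma adjusted p = 0.303). After quantile normalization its difference was 0.17 (limma adjusted p = 0.0838), which passed with the replicate block (0.0267). The other probe set of NHP6B, whose suffix marks sequence shared between genes, had a difference of 0.21 (limma adjusted p = 0.180 over all probe sets), and the array may not fully separate the copies.

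None of the 5 genes of the Paf1 complex, which links the elongating polymerase to histone modification, passed the test, and 0 did at an unadjusted p below 0.05 on either scale. RTF1 (YGL244W), for the subunit that promotes H2B ubiquitination, had the largest difference. It read 1123, 1097 and 1011 in wild type and 976, 1095 and 942 in the mutant, overlapping, with a log2 difference of -0.10 (SE 0.07, limma adjusted p = 0.305) that was -0.02 after quantile normalization (limma adjusted p = 0.873). With array weights RTF1 passed as lower (-0.17, limma adjusted p = 0.0409). PAF1, CTR9, LEO1 and CDC73 had log2 differences of -0.05, 0.08, -0.10 and 0.09, and the intervals of the 5 genes together ran from -0.26 to 0.28.

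Spt4 and Spt5 form a clamp-like factor on the polymerase, and Spt6 with Spn1 restores nucleosomes behind it. None of these 4 genes passed, with 0 at an unadjusted p below 0.05 on either scale. SPT5 (YML010W), whose probe set was dim, read 120.3, 82.6 and 122 in wild type and 132, 108 and 121 in the mutant. Its log2 difference was 0.17 (SE 0.16, limma adjusted p = 0.459), and the sign turned after quantile normalization (-0.23, limma adjusted p = 0.207). SPT6 averaged 452 ± 47.3 in wild type and 453 ± 30.9 in H2A R78A (SD, n = 3; limma adjusted p = 0.970), and SPT4 had a log2 difference of 0.03.

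SPN1 (YPR133C) read 561, 564 and 556 in wild type and 611, 595 and 616 in the mutant. Every mutant array was above every wild-type array on both scales, yet the log2 difference of 0.12 (SE 0.06) did not pass in limma, which moderates the small spread of a single gene (adjusted p = 0.170, and 0.235 after quantile normalization).

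ELF1 (YKL160W), for a small conserved elongation factor that binds the transcribing polymerase, was the elongation factor gene past the test. It read 1054, 1097 and 989 in wild type and 860.1, 905 and 883 in the mutant. All mutant arrays lay below all wild-type arrays, and the signal was 1.19-fold lower (log2 -0.24, SE 0.06, limma adjusted p = 0.0129). It was -0.18 after quantile normalization (limma adjusted p = 0.0360) and -0.16 with cyclic loess, where the call ended (limma adjusted p = 0.0572), as it did without mutant replicate 1 (0.0506). DST1, for TFIIS, which rescues arrested polymerase, read 541, 488 and 526 in wild type and 509.9, 559 and 489.9 in the mutant, with a log2 difference below 0.01 and wholly overlapping groups (limma adjusted p = 0.978).

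With the replicate number as a block the members past the test numbered 4 higher and 4 lower on the deposited scale, where 23.7% of all genes were higher and 15.7% lower. The added genes were MED8 and NUT2, higher, and RPB7, lower. With the block after quantile normalization there were 1 higher and 9 lower, against 14.1% and 16% of all genes. Cyclic loess called 0 members higher and 1 lower, against 11.4% and 7.36% of all genes (2 higher and 7 lower at an unadjusted p below 0.05, against 17.6% and 15% of all genes), and median centring called 1 higher and 7 lower, against 14.9% and 16.1%.

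Other genes of the polymerase II pathway, from lists of general factors, kinases, phosphatases, capping enzymes and assembly factors, were counted in the same way. Of 58 measured genes of 59 listed, 2 were higher and 5 lower on the deposited scale, against 17.9% and 9.18% of all genes. The median log2 difference was -0.002. At an unadjusted p below 0.05, 7 were higher and 9 lower, against 24.2% and 16.2% of all genes. After quantile normalization 0 were higher and 3 lower, against 10.4% and 9.98% of all genes. At the unadjusted p 2 were then higher and 9 lower, against 16% and 19% of all genes. With the replicate block 8 were higher and 9 lower on the deposited scale, against 23.7% and 15.7% of all genes. With the block after quantile normalization 0 were higher and 6 lower, against 14.1% and 16%. At the unadjusted p that fit had 3 of the 58 higher and 12 lower, where 1013 and 1287 of all 5449 genes were. The 2 genes higher on the deposited scale without the block belong to the kinase that phosphorylates the polymerase's C-terminal repeats during elongation. Its accessory subunit gene CTK3 read 251, 266 and 237 in wild type and 293, 305 and 302 in the mutant (log2 0.26, limma adjusted p = 0.0389). The catalytic subunit gene CTK1 went from 362 ± 16.3 to 424 ± 17.5 (SD, n = 3; log2 0.23, limma adjusted p = 0.0423). After quantile normalization the differences were 0.12 and 0.16 and neither passed (limma adjusted p = 0.378 and 0.142). CTK2, the cyclin gene of the same kinase, read 629, 621 and 651 in wild type and 592, 601 and 587 in the mutant, all mutant values being lower, and did not pass (log2 -0.09, limma adjusted p = 0.259; -0.10 and 0.266 after quantile normalization); it was named after its values were seen. FCP1, for a phosphatase of the same repeats and named after its values were seen, was lower on both scales (log2 -0.20 and -0.21, limma adjusted p = 0.0446 and 0.0470).

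GPN3, for a GTPase needed for nuclear import of the polymerase, was also lower on both scales (log2 -0.21 and -0.23, limma adjusted p = 0.0454 and 0.0340). Among the 5 subunits that all 3 nuclear polymerases share, 2 were lower on the deposited scale, where 9.18% of all genes were. With the replicate block on that scale 3 were lower, where 15.7% of all genes were. After quantile normalization 0 were lower, where 9.98% of all genes were. RPB8 read 1645, 1773 and 1583 in wild type and 1329.8, 1522 and 1338 in the mutant (log2 -0.26, limma adjusted p = 0.0191), and RPO26 had a log2 difference of -0.21 (limma adjusted p = 0.0219). After quantile normalization they were -0.12 and -0.10 and did not pass (limma adjusted p = 0.126 and 0.155), though RPB8 did with the replicate block (0.0314).

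Of 13 TFIID subunit genes 1 (7.69%) was lower on the deposited scale, TAF4, where 9.18% of all genes were. TAF4 had a log2 difference of -0.24 (limma adjusted p = 0.0453), and -0.17 after quantile normalization (limma adjusted p = 0.127). On the latter scale it passed with the replicate block (0.0249). Of 12 genes for TFIIA, TFIIB, the TATA-binding protein, TFIIE, TFIIF and their regulators none passed on the deposited scale. At an unadjusted p below 0.05, 1 was higher and 2 lower on that scale, against 24.2% and 16.2% of all genes. With the replicate block on that scale SUA7 passed as higher (limma adjusted p = 0.0465) and TOA1 and BUR6 as lower (0.0400 and 0.0439). With the block after quantile normalization SUA7, TOA1 and BUR6 did not pass (log2 0.05, -0.07 and 0.003, limma adjusted p = 0.673, 0.273 and 0.964). TFG2, for a TFIIF subunit, was lower after quantile normalization (log2 -0.40, limma adjusted p = 0.02). None of 10 TFIIH genes and none of 3 capping genes passed the unpaired test on either scale. At an unadjusted p below 0.05 TFIIH had 1 higher and 1 lower on the deposited scale, against 24.2% and 16.2% of all genes. After quantile normalization TFIIH had 4 lower at that p, where 19% of all genes were, and the capping genes had 0 on either scale. With the replicate block KIN28, for the TFIIH kinase, passed as higher (limma adjusted p = 0.0343) and RAD3, for a TFIIH helicase, as lower (0.0240, and 0.0266 after quantile normalization). KIN28 did not pass with the block after quantile normalization, where 0 TFIIH genes were higher. SUA7, TOA1, BUR6, KIN28 and RAD3 are named from the blocked fit, a choice made with their values in view.

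The subunits particular to RNA polymerase II had a median log2 difference of -0.12, those particular to polymerase I -0.13 (7 genes) and those particular to polymerase III -0.14 (10 genes). After quantile normalization the medians were -0.03, -0.02 and -0.19. No difference between the 3 enzymes was tested.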

How the data were processed

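Biotinylated cRNA made from total RNA was hybridised to Affymetrix arrays, per the labels' protocols. The values used are the deposited probe set signal intensities on a linear scale, scaled so that the mean of each array, trimmed by 2% on both sides, is 500. The submitters' processing notes name MAS5 and limma, with versions not given in the sources used here. Of 5900 probe sets 5498 were paired with 1 gene, and the highest-mean probe set was kept for each of 5449 genes. Log2 signals were fitted in limma 3.58.1 (R 4.3.3; intensity trend, two-sided), adjusted by Benjamini-Hochberg over all genes, threshold 0.05. Intervals are 95%. Quantile normalization and cyclic loess were computed over all probe sets.

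Groups share replicate numbers. Deviations from group means of same-numbered arrays correlated across genes with r = 0.206, 0.383 and 0.427. Those of differently numbered arrays had r from -0.449 to 0.154. The deviations within a group are tied by their shared mean, so these r values are not independent of each other. The number was also fitted as a block, a choice made from these same data. The sample titles give only the replicate number and state no pairing. Members and lists were chosen with earlier results of these data known. Values on every array were given for members past the threshold on either scale, for the largest difference in a complex without one, and for SPT16 and RPO21, and other members were added after their values were seen. Of each pathway list up to 2 members past the threshold were named. The limma procedure was tested on simulated data with differences made in genes above the background level. It called 27 of 50 made differences of 0.25 on the log2 scale and 100 of 100 of 0.5. Figures were drawn with matplotlib 3.10.9.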

Additional observations from a re-analysis of the deposited data

How the results depend on the processing

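The count of higher members was 0 after quantile normalization and with cyclic loess. It was 1 with median centring, with dim genes filtered out, with low values raised and with quantile normalization plus the replicate block. With array weights 4 were higher (MED6, MED8, NUT2 and SSN8), where 1340 of all 5449 genes were, and with the replicate block alone also 4. Leaving out an array gave 1 (any wild-type array or mutant replicate 1) to 3 (mutant replicate 2). The count of lower members was 7 with median centring (MED4, SRB7, ELF1, RPB3, RPB7, RGR1 and NUT1) and 1 with cyclic loess (MED4). With array weights 8 were lower (MED4, SRB7, ELF1, RPB4, RPB7, SRB2, SIN4 and RTF1), where 920 of all 5449 genes were. The count was 9 with quantile normalization plus the replicate block, and 2 to 4 when an array was left out. Over all genes, 976 were higher, and 566 after quantile normalization, 622 with cyclic loess, 418 with dim genes filtered out and 574 with low values raised (683 to 1085 with an array left out). The 500 lower genes became 875 with median centring, 312 without a variance trend, 920 with array weights, 857 with the replicate block and 871 with the block after quantile normalization; leaving out an array gave 194 to 601, the lowest without mutant replicate 3, and 228 without mutant replicate 1 or wild-type replicate 1, and 308 without wild-type replicate 2. Increases were 66.1% of calls on the deposited scale, 51% after quantile normalization, 48.1% with median centring, 60.8% with cyclic loess, 46.9% with quantile normalization plus the block, 75.4% without a variance trend, and 64.4% to 78.2% with an array left out. The causes were not tested. The replicate block ended no call of a member made on the deposited scale. Between the deposited scale and quantile normalization, the differences of the 9 members below the background level moved by 0.19 to 0.49 on the log2 scale, and those of the 37 others by at most 0.16.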
